A study of Homo sapiens with 20 samples.

Results

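The 10 genes described here belong to the integrated stress response governed by the transcription factor ATF4. They are ATF4 itself, its relatives in transcription ATF5 and DDIT3, the target genes CHAC1, TRIB3 and SESN2, the amino acid synthesis enzymes ASNS, PSAT1 and PHGDH, and the endoplasmic reticulum chaperone HSPA5. Each was found by its gene name as 1 row of the deposited table of normalized counts, 10 of 44294 genes with values (57992 listed), and the rule used no measured value. Poly(A) RNA was sequenced from 20 xenograft tumors of human rhabdomyosarcoma cells grown in NOD/SCID mice, which lack functional T and B cells but keep myeloid cells. RD cells, from an embryonal tumor without a PAX fusion, and SJRH30 cells, from an alveolar tumor with PAX3-FOXO1, were each grafted as non-targeting control cells or as TLE3 knockout cells. TLE3 is a transcriptional corepressor of the Groucho family. Each of the 4 groups, control and knockout tumors of either line, holds 5 tumors, all excised when control tumors reached the permitted size. The labels do not say whether the knockout cells were a clone or a pool, which guide was used, or whether each tumor grew in its own mouse.

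In the integrated stress response, kinases that sense misfolded protein, amino acid shortage, viral RNA or heme shortage phosphorylate the initiation factor eIF2. Most translation then falls while the ATF4 message is translated more, so that ATF4 activity is set largely at translation and its RNA level is an incomplete readout of it. ATF4 protein turns on genes for amino acid synthesis and import, tRNA charging and glutathione turnover, and with prolonged stress DDIT3 (CHOP), a partner of ATF4. ATF4 binds composite elements that join a C/EBP and an ATF sequence, whereas HSPA5 is chiefly driven by ATF6 and XBP1 through endoplasmic reticulum stress elements. In tumors the same genes respond to shortage of glucose, oxygen and amino acids.

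The promoters of the 3 genes that held such an element are shown, and a tie between element and RNA level was not tested. The windows run from 250 bases before to 50 after the RefSeq start (GRCh38.p14), all 10 genes were matched in 17 windows, and capitals mark the motif. The composite element was sought as TGATGNAAN and the endoplasmic reticulum stress element as CCAAT followed, after any 9 bases, by CCACG, on both strands, and the motifs share no letters in these windows. CHAC1 (chr15:40953221-40953520, plus strand) held the composite element on the opposite strand, its first printed base at -210. ASNS (chr7:97872359-97872658, minus strand) held it on the strand of the gene at -68, and HSPA5 (chr9:125241294-125241593, minus strand) held the stress element at -66.
CHAC1: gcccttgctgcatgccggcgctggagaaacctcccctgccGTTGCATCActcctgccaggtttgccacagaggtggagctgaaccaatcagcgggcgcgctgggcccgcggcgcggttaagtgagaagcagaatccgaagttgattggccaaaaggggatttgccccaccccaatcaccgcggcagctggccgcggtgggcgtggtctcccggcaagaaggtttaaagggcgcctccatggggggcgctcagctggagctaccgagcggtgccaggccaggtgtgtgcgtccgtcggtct
ASNS: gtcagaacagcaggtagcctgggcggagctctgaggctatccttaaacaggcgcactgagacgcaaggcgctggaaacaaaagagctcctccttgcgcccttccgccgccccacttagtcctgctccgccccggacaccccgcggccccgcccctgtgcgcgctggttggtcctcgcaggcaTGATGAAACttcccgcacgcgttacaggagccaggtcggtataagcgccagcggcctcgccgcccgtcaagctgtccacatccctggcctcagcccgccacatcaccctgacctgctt
HSPA5: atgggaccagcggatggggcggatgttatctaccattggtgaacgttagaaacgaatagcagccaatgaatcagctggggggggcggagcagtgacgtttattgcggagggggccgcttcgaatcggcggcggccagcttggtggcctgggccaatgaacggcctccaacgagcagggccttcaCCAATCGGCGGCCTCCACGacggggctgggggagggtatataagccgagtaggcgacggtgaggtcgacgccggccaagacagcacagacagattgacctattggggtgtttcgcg
Of 35116 promoter windows in the table, 3.61% held TGATGNAAN and 0.0769% held the stress element, and of the 17 windows of the 10 genes 2 and 1 held them, those of 2 genes and of 1 gene. A match is a description of letters only, and elements outside the windows were not searched.

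Depth differed between libraries and bears on every comparison. In 18 libraries the normalized counts summed to 26.1 to 60.7 M, 37072 to 42412 genes lay above 0 and mitochondrial transcripts were 2.34% to 16.9%. RD knockout 5 held about 9.65 M reads, with 4.93 units per read and 32.4% mitochondrial transcripts, and SJRH30 control 3 held about 2.14 M reads, with 10.9 units per read and 20.4%. The authors' own mean over libraries gives both of these shallow libraries a weight of 0, so each result is stated over all 20 libraries and again over the 18 deep ones. SJRH30 control 3 also lacks the high CDK4 count of the other SJRH30 libraries, 1144 against 17605 or more, and goes against its label in this respect. Levels of TLE3 itself were 1345, 1810, 2622, 1270 and 1809 normalized counts in RD controls 1 to 5 against 1465, 1357, 1032, 1547 and 424 in RD knockouts 1 to 5, a log2 difference of -0.36 ± 0.23 (SE, adjusted p = 0.659, limma, deep libraries). In SJRH30 they were 426, 638, 185, 597 and 407 in controls against 967, 806, 582, 637 and 809 in knockouts, a log2 difference of 0.56 ± 0.28 (SE, adjusted p = 0.276, limma, deep libraries). TLE3 RNA thus did not mark the knockout, which RNA of an edited gene need not do, and "knockout" below means tumors so labelled.

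**Figure D1:**
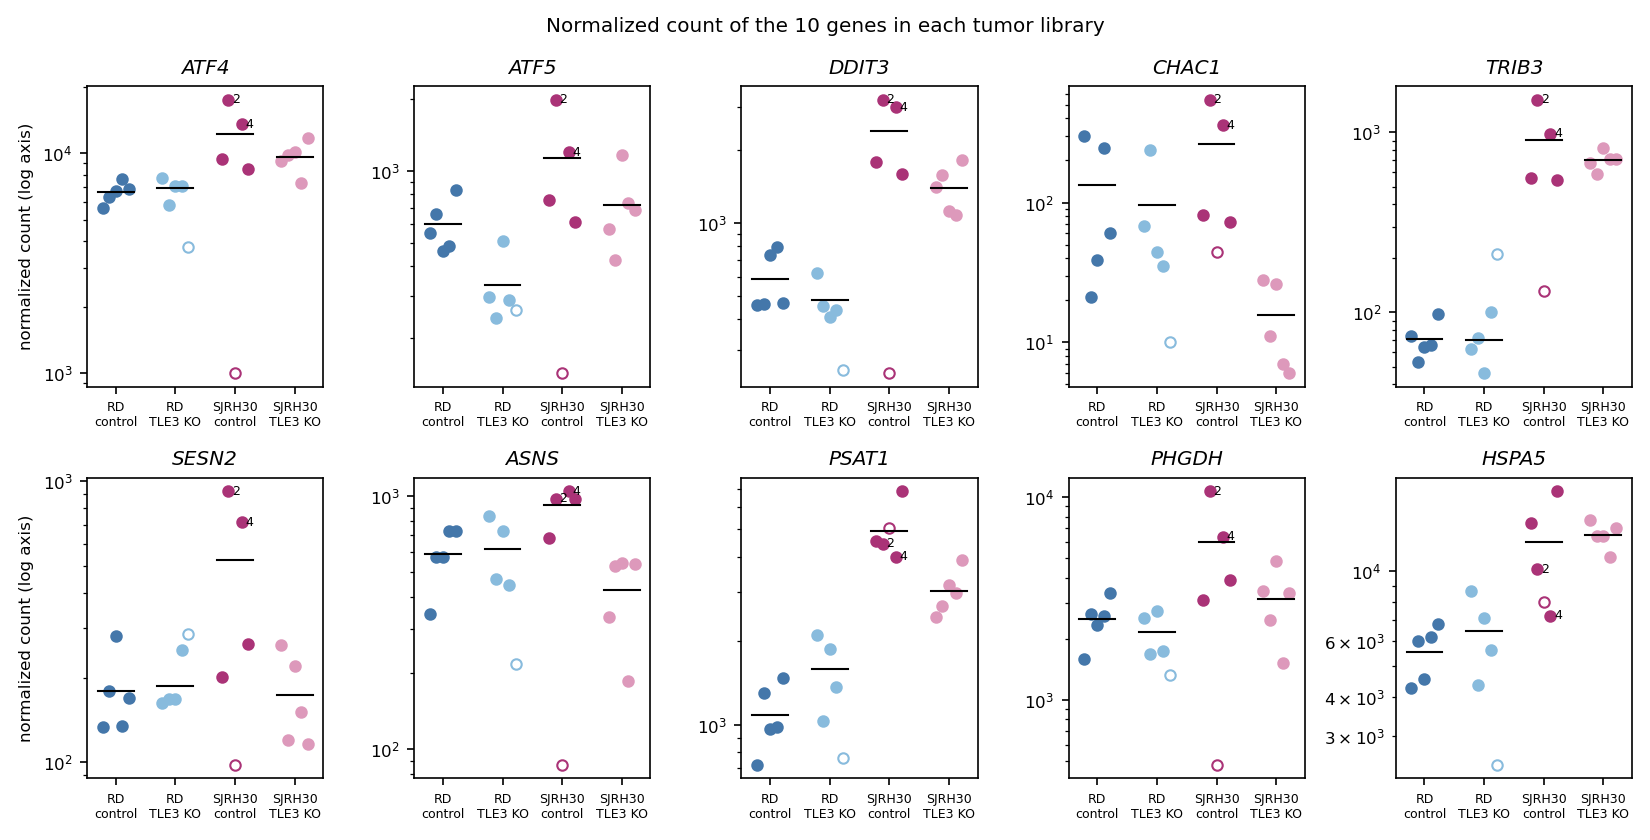
Normalized count (log axis, a separate scale per gene) of each of the 10 genes in the 5 libraries of each group; filled points are deep libraries, open points are RD knockout 5 and SJRH30 control 3, bars are means of the deep libraries, and the digits mark SJRH30 controls 2 and 4. CHAC1 and PSAT1 of the SJRH30 knockout tumors lie wholly below the SJRH30 controls, and SJRH30 control 3 lies lowest of its group for 8 of the 10 genes.

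ATF4 (ENSG00000128272, chromosome 22, 39519695 to 39522685, plus strand) was the most abundant of the 10 genes per kilobase of exon in each of the 4 groups. Its normalized count was 5661, 6360, 6728, 7630 and 6889 in RD controls 1 to 5 and 7758, 5840, 7124, 7126 and 3746 in RD knockouts. In SJRH30 it was 9440, 17525, 1002, 13537 and 8473 in controls and 9261, 9810, 10089, 7329 and 11716 in knockouts. SJRH30 controls 2 and 4 were the highest of all 20 libraries, the shallow control 3 the lowest, and control and knockout values overlapped in both lines. ATF4 has processed pseudogene copies, of which ATF4P3 had a mean of 375 normalized counts in the deep libraries, so a small share of reads may be divided between them.

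ATF5 (chromosome 19, 49928702 to 49933935, plus strand), a relative of ATF4 that is likewise controlled at translation and acts in mitochondrial stress, read 550, 658, 460, 485 and 828 in RD controls. In RD knockouts 1 to 5 it read 296, 242, 508, 288 and 262, so that only knockout 3 reached into the control range. In SJRH30 it read 753, 1983, 142, 1192 and 611 in controls and 572, 422, 1166, 733 and 686 in knockouts, which overlapped. ATF5 overlaps IL4I1 and NUP62 on the opposite strand, with means of 2627 and 2601 normalized counts against 691 for ATF5, and the library kit is not stated to keep the strand. Whether their exons overlap was not tested, so some of the reads counted for ATF5 may be theirs, and the same holds for DDIT3.

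DDIT3 (chromosome 12, 57516588 to 57521737, minus strand) encodes CHOP, which promotes cell death when stress persists. RD controls had 457, 464, 734, 796 and 468 normalized counts and RD knockouts had 620, 452, 408, 439 and 247. SJRH30 controls had 1776, 3215, 240, 2988 and 1587 and SJRH30 knockouts had 1402, 1577, 1113, 1072 and 1819. Apart from the shallow control 3, every SJRH30 library lay above every RD library. DDIT3 overlaps MARS1 and MBD6 on the opposite strand, with means of 6181 and 1583 normalized counts against 1188 for DDIT3.

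CHAC1 (chromosome 15, 40952962 to 40956519, plus strand) degrades glutathione and is a well-known target gene of ATF4, and its promoter window held the composite element shown above. Its normalized count was 82, 545, 44, 357 and 72 in SJRH30 controls 1 to 5 and 28, 11, 26, 7 and 6 in SJRH30 knockouts. Each knockout value was below each control value, and the controls themselves fell into a high pair (2 and 4) and lower libraries. In RD it was 301, 21, 39, 246 and 60 in controls and 68, 236, 44, 35 and 10 in knockouts. RD tumors thus spread from 21 to 301 within the control group alone, with high values in controls 1 and 4 and in knockout 2. CHAC1 had the widest relative spread of the 10 genes, with a coefficient of variation of 97.5% in RD controls and 86.8% in the deep SJRH30 controls.

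TRIB3 (chromosome 20, 362835 to 397559, plus strand) encodes a pseudokinase that is induced by ATF4 and DDIT3 and restrains them in turn. It had 74, 53, 64, 66 and 98 normalized counts in RD controls and 63, 72, 46, 101 and 212 in RD knockouts, the last from the shallow library. In SJRH30 it had 560, 1519, 131, 984 and 547 in controls and 678, 585, 824, 714 and 709 in knockouts. Among deep libraries the lowest SJRH30 value was over 5 times the highest RD value, 547 against 101. SESN2 (chromosome 1, 28259527 to 28282491, plus strand), a leucine-sensing restraint on mTORC1 and a target of both ATF4 and p53, had 133, 179, 281, 134 and 169 in RD controls and 163, 168, 168, 250 and 286 in RD knockouts. It had 201, 922, 98, 715 and 263 in SJRH30 controls and 262, 120, 220, 151 and 116 in SJRH30 knockouts, where the gap rests on controls 2 and 4.

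ASNS (chromosome 7, 97852118 to 97872542, minus strand) makes asparagine. It had 683, 977, 87, 1047 and 978 normalized counts in SJRH30 controls and 334, 528, 544, 187 and 538 in SJRH30 knockouts. Apart from the shallow control 3, no knockout reached the controls. In RD it had 341, 574, 574, 730 and 732 in controls and 837, 471, 727, 444 and 217 in knockouts, which overlapped.

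PHGDH and PSAT1 catalyse the first and second steps of serine synthesis from glucose. PSAT1 (chromosome 9, 78297143 to 78330093, plus strand) had 4542, 4439, 5055, 3993 and 6854 normalized counts in SJRH30 controls against 2441, 2658, 3158, 2970 and 3878 in SJRH30 knockouts. All 5 knockout values were below all 5 control values, and here control 3 was not low and controls 2 and 4 were not high. In RD it had 722, 1297, 966, 983 and 1471 in controls and 2094, 1036, 1869, 1371 and 760 in knockouts, so 2 knockouts exceeded every control. PHGDH (chromosome 1, 119648411 to 119744226, plus strand) ranged from 1583 to 3370 in RD controls, 1318 to 2734 in RD knockouts, 479 to 10671 in SJRH30 controls and 1514 to 4837 in SJRH30 knockouts, with overlap in both lines.

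HSPA5 (chromosome 9, 125234853 to 125241330, minus strand) encodes BiP, the main chaperone of the endoplasmic reticulum and the sensor partner of its stress receptors. It had 4261, 6024, 4534, 6176 and 6788 normalized counts in RD controls and 8652, 4343, 7119, 5631 and 2433 in RD knockouts. In SJRH30 it had 14265, 10155, 8007, 7212 and 17941 in controls and 14577, 12968, 12928, 11118 and 13679 in knockouts. SJRH30 controls 2 and 4, high for ATF4, DDIT3 and CHAC1, were the lowest of the deep SJRH30 controls for HSPA5, while the SJRH30 knockouts lay close together.

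Per kilobase of exon over the deep libraries, the order of levels in SJRH30 controls was ATF4 at 4870 normalized counts per kilobase, HSPA5 at 3171, PSAT1 at 2266, DDIT3 at 1830, PHGDH at 652, ATF5 at 384, TRIB3 at 263, ASNS at 207, SESN2 at 152 and CHAC1 at 128. Ranks 1 to 5 were the same genes in every group. TRIB3 ranked 10 in RD controls, at 20.7 per kilobase, and CHAC1 ranked 10 in SJRH30 knockouts, at 7.58. In SJRH30 controls DDIT3 and PHGDH were the 1 pair of neighbours in this order whose gap exceeded the sum of their SDs. In RD controls the gaps of ATF4 to HSPA5, HSPA5 to PSAT1 and SESN2 to TRIB3 did, and the other neighbours lay within each other's spread.

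SJRH30 tumors labelled as TLE3 knockout had less CHAC1 RNA than SJRH30 controls, a call that was made in the deep libraries and rests on part of the controls. Over all 10 SJRH30 libraries CHAC1 had a difference of -3.33 ± 0.75 (SE, n = 5 and 5) on the log2(count + 1) scale, which did not pass the test (adjusted p = 0.333, limma across 40028 genes), and no member did, where 4 genes (0.00999%) were called in all. At an unadjusted p below 0.05 there were 2, CHAC1 and PSAT1, a count given without the share of all genes at that level and not read as a result. Without the shallow control 3 the CHAC1 difference was -3.73 ± 0.62, 13.3-fold lower, and passed (adjusted p = 0.0109, limma, n = 4 and 5). It was then the single call among the 10 genes, where 0.29% of 39720 genes were called lower and 0.486% were called in either direction. The call rests on SJRH30 controls 2 and 4. Leaving out control 2 as well gave -3.22 (adjusted p = 0.0534) and leaving out control 4 gave -3.42 (adjusted p = 0.0746), and without both the difference was -2.48 (adjusted p = 0.425), with 2 controls against 5 knockouts. Rescaling the deep libraries kept the call, at -3.75 by median ratio (adjusted p = 0.00835) and -3.60 with equal library sums (adjusted p = 0.0164).

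The other SJRH30 values pointed mostly the same way in the deep libraries without passing. Log2 differences were -1.39 ± 0.43 for SESN2 (adjusted p = 0.123), -1.20 ± 0.33 for ASNS (0.106), -0.88 ± 0.38 for PHGDH (0.219), -0.74 ± 0.30 for DDIT3 (0.191) and -0.70 ± 0.27 for PSAT1 (0.183), all by limma. Of the 30 listed neighbours of DDIT3 on chromosome 12, 27 were negative like DDIT3, with a median of -0.59 and none called. In the difference of knockout effects 29 of 30 were negative with a median of -0.62. With all libraries both turned. In the SJRH30 knockout 20 of 30 neighbours were then positive (median 0.14), with DDIT3 at -0.09. In the difference of effects 23 of 30 neighbours were positive (median 0.37), with DDIT3 at 0.36. Their part in the DDIT3 value was not tested. In the deep libraries ATF5 at -0.59 ± 0.36, ATF4 at -0.30 ± 0.31 and TRIB3 at -0.24 ± 0.32 were smaller, and HSPA5 was at 0.15 ± 0.32. ASNS passed in 1 of the 9 fits that left out a further library, the one without SJRH30 knockout 3. The median over the 10 genes was -0.72, against 0.03 over all genes tested. With all 10 libraries that median was -0.14 against 0.17, and ATF4 (0.41) and TRIB3 (0.29) changed sign. Without controls 2 and 4 and the shallow control, ATF4 stood at 0.09, ATF5 at -0.00, PHGDH at -0.26 and SESN2 at -0.48, while ASNS at -1.05 and PSAT1 at -0.90 moved less.

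Groups that do not overlap give a view that does not depend on the fitted spread. In the SJRH30 knockout 2 of 10 genes, CHAC1 and PSAT1, had every knockout value below every control value, where 0.71% of all genes did so. In the deep libraries ASNS joined them, 3 of 10 against 2.81% of all genes. The authors' deposited table calls CHAC1 (fold 0.061, adjusted p = 0.000152), SESN2 (0.332, adjusted p = 0.00634) and ASNS (0.461, adjusted p = 0.0163) lower in the SJRH30 knockout and no other member. In bulk tumors fewer cells of a type and less RNA per cell cannot be told apart.

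**Figure D2:**
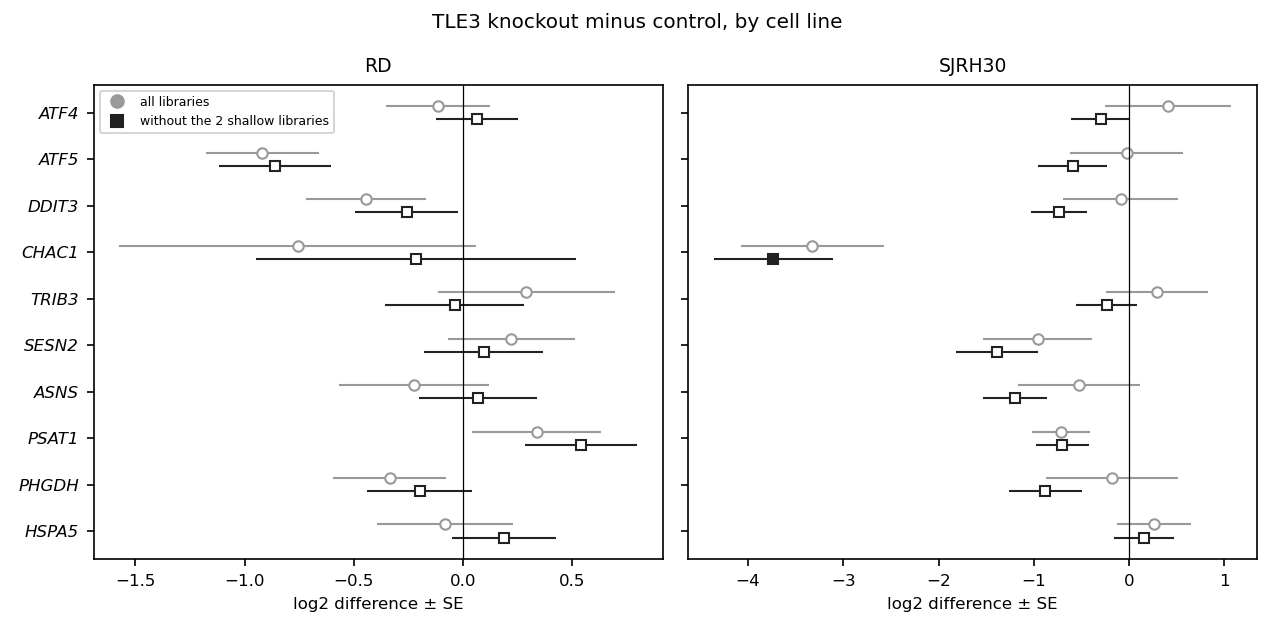
Log2 difference between TLE3 knockout and control tumors (points, with standard errors as bars, on separate scales) for each gene in RD and SJRH30, with all libraries (circles) or without the 2 shallow libraries (squares); filled symbols passed an adjusted p of 0.05. The 1 filled symbol is CHAC1 in SJRH30 at -3.73, and the RD values lie between -0.92 and 0.54.

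In RD tumors none of the 10 genes passed the test for the knockout. No member was called with all libraries (0.142% of 42917 genes called) or with the deep ones (0.332% of 42763 genes called). At an unadjusted p below 0.05 there was 1, ATF5, again without the share of all genes at that level and not read as a result. ATF5 had a log2 difference of -0.92 ± 0.26 with all libraries (adjusted p = 0.288, limma) and stood at -0.86 ± 0.26 in the deep libraries (adjusted p = 0.23). PSAT1 stood at 0.54 ± 0.26 (adjusted p = 0.521), opposite in sign to SJRH30. CHAC1 was at -0.22 ± 0.73 (adjusted p = 0.952), the widest error of the 10 genes. The median of the 10 was 0.01, against 0.02 over all genes tested, and the authors' deposited table calls none of them in RD.

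The difference of the knockout effects between the lines was tested in its own right. No member passed with all libraries, where 0.00903% of 44294 genes did, or in the deep libraries, where 0.197% of 44263 genes did. Unadjusted p lay below 0.05 for CHAC1 and PSAT1 with all libraries and for CHAC1, PSAT1, ASNS and SESN2 in the deep ones (limma). These genes are given without the share of all genes at that level and are not read as a result. The deep values of SJRH30 minus RD were -3.52 ± 1.05 for CHAC1 (adjusted p = 0.222), -1.24 ± 0.36 for PSAT1 (0.208), -1.27 ± 0.44 for ASNS (0.321) and -1.48 ± 0.54 for SESN2 (0.345), by limma. The CHAC1 response is thus not shown to differ between the lines.

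More of the 10 genes were called between the lines than between the genotypes of a line. Among control tumors TRIB3, PSAT1 and HSPA5 were higher in SJRH30 with all 20 libraries, 3 of 10 genes, where 6.23% of 44294 genes were called higher and 18.7% were called in all. TRIB3 was 8.10-fold higher (log2 difference 3.02 ± 0.48, adjusted p = 9.02e-05, limma), PSAT1 4.63-fold (2.21 ± 0.29, adjusted p = 8.91e-06) and HSPA5 1.98-fold (0.99 ± 0.34, adjusted p = 0.0453). The HSPA5 call held in 5 of the 20 fits that left out 1 library. In the deep libraries 7 of 10 were higher, with ATF4 (0.83 ± 0.24, adjusted p = 0.00796), PHGDH (1.14 ± 0.34, 0.00929), SESN2 (1.32 ± 0.38, 0.00795) and DDIT3 (2.01 ± 0.26, 1.74e-06) added and TRIB3 at 3.55 ± 0.30. There 18.1% of 44263 genes were called higher, and the median of all genes lay at -0.36 against 1.15 for the 10. ATF5 (0.81 ± 0.33, adjusted p = 0.0507), ASNS (0.67 ± 0.31, 0.0877) and CHAC1 (1.16 ± 0.74, 0.221) did not pass, and ATF5 lay close enough to the threshold to pass in 6 of 18 fits that left out a further library. Leaving out SJRH30 control 2 as well ended the calls of PHGDH (0.81, adjusted p = 0.0617) and SESN2 (0.96, adjusted p = 0.0549).

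Among knockout tumors TRIB3, DDIT3, HSPA5 and PSAT1 were higher in SJRH30 with all 20 libraries, 4 of 10, where 8.01% of genes were called higher and 16.9% in all. Log2 differences were 3.02 ± 0.48 for TRIB3 (adjusted p = 8.47e-05), 1.72 ± 0.49 for DDIT3 (0.0163), 1.33 ± 0.34 for HSPA5 (0.00788) and 1.16 ± 0.29 for PSAT1 (0.00753), by limma, and each of these calls held in all 20 fits that left out 1 library. In the deep libraries ATF5 was also higher (1.08 ± 0.33, adjusted p = 0.0156) and CHAC1 was lower (-2.36 ± 0.74, adjusted p = 0.0199), where 12.6% of genes were called higher and 14.2% lower. The CHAC1 call ended without RD knockout 2 (-1.79, adjusted p = 0.106) or SJRH30 knockout 5 (-2.12, adjusted p = 0.056), and the ATF5 call ended without RD knockout 2 (0.94, adjusted p = 0.0618). CHAC1 was therefore at 1.16 ± 0.74 between the lines in controls and at -2.36 ± 0.74 in knockouts, while TRIB3 was at 3.55 and 3.34. Every SJRH30 value lay above every RD value for 4 of the 10 genes with all libraries (9.94% of all genes) and in the deep ones (10.8%), where CHAC1 lay wholly below (12.3%), and in controls this held for 3 (4.19%) and 5 (14.4%) of the 10. These comparisons share libraries with the knockout comparisons, so they are no separate evidence on CHAC1.

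The scale of the libraries bears on every difference between the lines, since the normalized counts of the deep libraries summed to 37.0 to 60.7 M in SJRH30 and 26.1 to 33.3 M in RD. Rescaling the deep libraries by median ratio kept the direction of all 10 genes, with 8 called higher in controls. Rescaling them to equal sums moved the median of all genes from -0.36 to -0.87 in controls and from -0.20 to -0.58 in knockouts. On that scale TRIB3 (2.92, adjusted p = 1.48e-08), PSAT1 (1.56, 4.64e-05) and DDIT3 (1.38, 0.000114) were still called higher in controls, by limma. ATF4 (0.19, adjusted p = 0.463), HSPA5 (0.46, 0.19), PHGDH (0.50, 0.184) and SESN2 (0.69, 0.0983) were not. In knockouts on that scale TRIB3 (2.89, adjusted p = 1.94e-08) and DDIT3 (1.07, 0.00203) were called higher, and CHAC1 (-2.80, 0.00678) and ASNS (-1.05, 0.0169) lower. With all 20 libraries at equal sums TRIB3 and PSAT1 were called higher in controls and TRIB3 and DDIT3 in knockouts, and ATF4 (-0.32) and ATF5 (-0.20) turned negative in controls without passing.

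**Figure D3:**
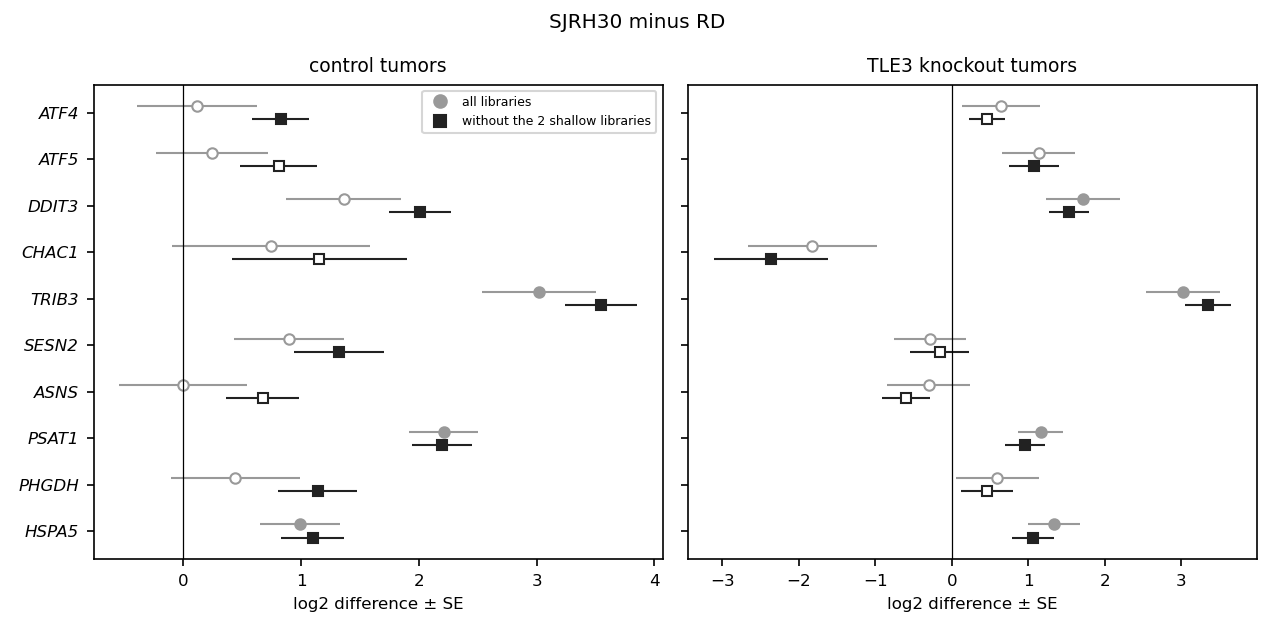
Log2 difference between SJRH30 and RD tumors (points, with standard errors as bars) for each gene in control tumors and in TLE3 knockout tumors, with all libraries (circles) or without the 2 shallow libraries (squares); filled symbols passed an adjusted p of 0.05. TRIB3 lies furthest to the right in both panels, between 3.02 and 3.55, and CHAC1 is the sole gene called lower, at -2.36 in knockouts.

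DDIT3 lies among genes of chromosome 12 that include CDK4 and GLI1, neighbours known to be amplified together in some sarcomas. In control tumors (deep libraries) 23 of 30 listed neighbours were higher in SJRH30 and 1, KIF5A, was lower, with a median log2 difference of 2.38 against 2.01 for DDIT3. CDK4 stood at 3.22 ± 0.27 (adjusted p = 1.3e-09), GLI1 at 4.81 ± 0.40 (adjusted p = 9.88e-10) and MARS1, which overlaps DDIT3, at 2.36 ± 0.25 (adjusted p = 5.62e-08). In knockout tumors 21 of 30 were higher and 2 lower, with a median of 1.63 against 1.53 for DDIT3. With all libraries 13 of 30 were higher and 1 lower in controls (median 1.63), and with equal sums of the deep libraries 20 were higher and 2 lower. Over all genes 18.1% were called higher and 22.4% lower in controls (deep libraries), and 12.6% and 14.2% in knockouts. With all libraries 6.23% were called higher in controls, and with equal sums of the deep libraries 4362 genes were called higher and 16572 lower. The DDIT3 difference lay below the median of its neighbours in both genotypes, copy number was not measured, and its part in the result was not tested. SHMT2, a mitochondrial serine enzyme and ATF4 target, and INHBE, another target, lie in the same stretch.

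**Figure D4:**
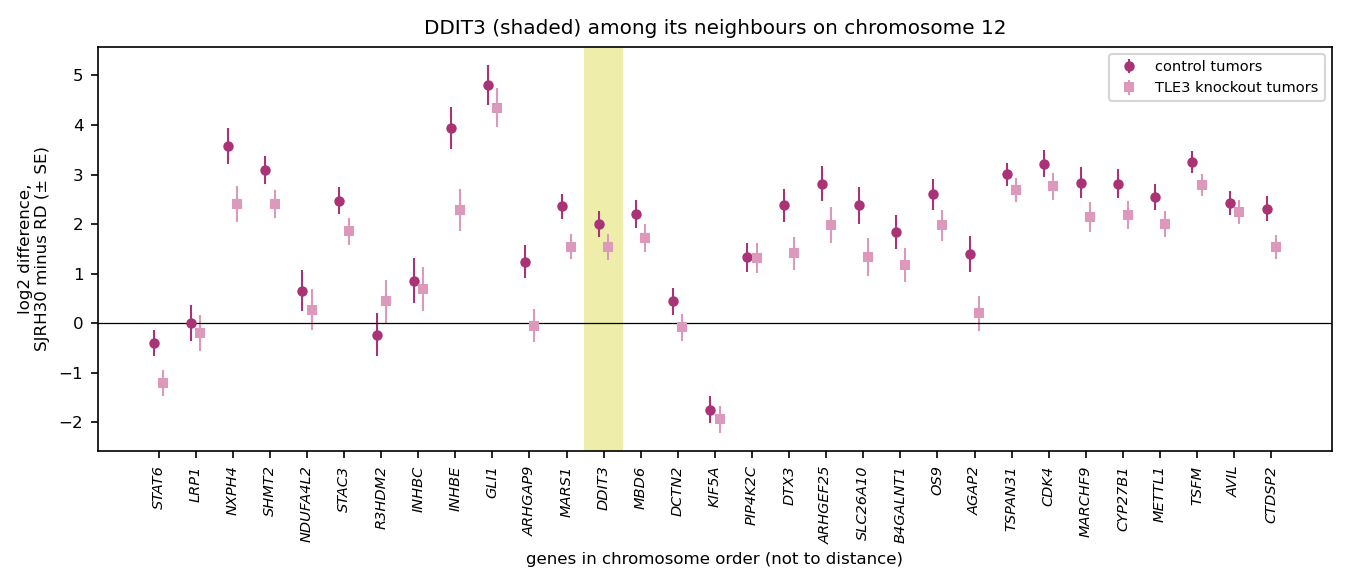
Log2 difference between SJRH30 and RD tumors (points, with standard errors as bars, deep libraries) for DDIT3, shaded, and 30 neighbouring genes in chromosome order, in control tumors (circles) and TLE3 knockout tumors (squares). DDIT3 at 2.01 and 1.53 sits within the range of its neighbours, of which 23 were higher in SJRH30 controls.

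Within a group, tumors with more of one gene often had more of another, but not of all. After group means were removed, 33 of 45 pairs had a positive Pearson correlation over the 18 deep libraries and 5 pairs passed a permutation test with values shuffled within groups (100000 permutations, adjusted over the 45 pairs). Of all pairs among 18447 genes with a mean of at least 100 normalized counts, 51.7% had a positive r over the same libraries (median r 0.02). For ATF4 and PHGDH r was 0.82 (p = 0.00154, adjusted p = 0.0155) and Spearman's rho was 0.76 (permutation p = 0.00647, adjusted p = 0.0582). For ATF4 and DDIT3 r was 0.79 (permutation p = 0.00172, adjusted p = 0.0155) and rho 0.82 (p = 0.00336, adjusted p = 0.0403). ATF4 and ASNS (r 0.61, rho 0.67), ASNS and PHGDH (r 0.72, rho 0.66) and PSAT1 and HSPA5 (r 0.76, rho 0.74) also passed with r (adjusted permutation p = 0.0155 each) and with rho (0.0403 each). Without the pair of libraries farthest from the median of the first gene, these 5 correlations were 0.77, 0.72, 0.85, 0.55 and 0.69 in the same order.

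HSPA5 had the lowest median correlation with the others in the deep libraries, an order that rests on SJRH30 controls 2 and 4. Its median r with the other 9 genes was -0.16, against 0.55 for ATF4. Without those controls it was 0.29, above the medians of 5 other genes, and CHAC1 was lowest at -0.14, while in RD alone HSPA5 had a median of 0.56. Over the 18 libraries CHAC1 and PSAT1 had the lowest r of all pairs at -0.64 (permutation p = 0.0146, adjusted p = 0.0936). The pattern in SJRH30 rests in part on controls 2 and 4. Like SJRH30 knockouts 3 and 5, these controls lay above their group mean for 8 of 10 genes each. Without them 26 of 45 pairs were positive, where 54% of all pairs of genes were, and 5 pairs passed with r and none with rho. ASNS and PHGDH (r 0.84), PSAT1 and HSPA5 (r 0.80) and ATF4 and ASNS (r 0.80) stayed among them. ATF4 no longer passed with PHGDH or with DDIT3, while r of HSPA5 with ATF4 turned from -0.14 to 0.59. SJRH30 control 2 also has the largest sum of normalized counts, 60.7 M against 38.0 to 46.3 M in the other deep SJRH30 controls, and the part of this scale in the correlations was not tested. In RD alone (9 libraries, exact permutation) PSAT1, PHGDH and HSPA5 formed the 3 pairs that passed, with r of 0.86 to 0.92 (adjusted p = 0.0469 each) and rho of 0.90 to 0.93, of which none passed (adjusted p = 0.0703). In SJRH30 alone (9 libraries, exact permutation) ATF5 and TRIB3 passed, with r of 0.91 (adjusted p = 0.0156) and rho of 0.97 (adjusted p = 0.0312).

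**Figure D5:**
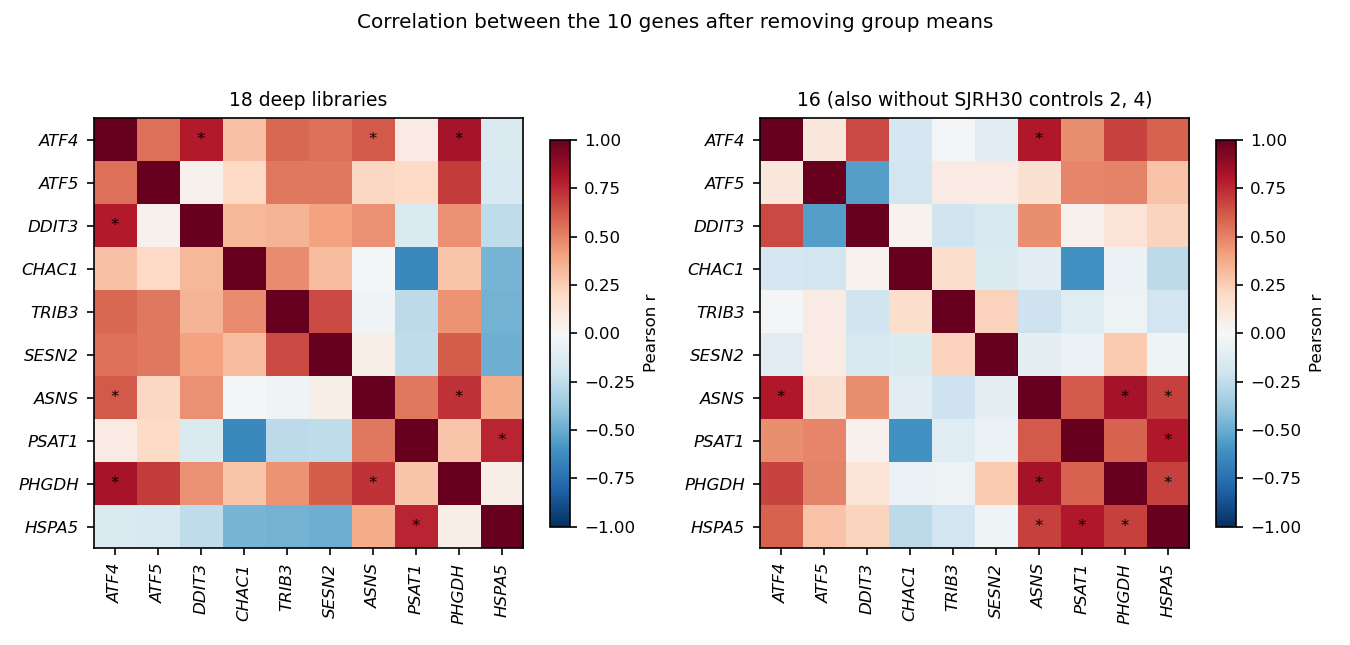
Pearson correlation (colour scale from -1 to 1) between the 10 genes after group means were removed, over the 18 deep libraries (left) and over 16 that also leave out SJRH30 controls 2 and 4 (right); stars mark an adjusted permutation p below 0.05. ATF4 with PHGDH, at 0.82, is the strongest pair on the left, and CHAC1, TRIB3 and SESN2 lose their positive values with ATF4 on the right.

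Genes outside the 10 whose group-centred log2 values most resembled the mean of the 10 over the 18 deep libraries were sought among 18447 genes with a mean of at least 100 normalized counts. They were CENPO (r 0.97), DYNC1H1 (0.97), NOMO2 (0.97), DHCR7 (0.97) and RP11-1017G21.4 (0.97). None of these belongs to the lists of stress response genes described next. Listed genes followed at lower ranks, AARS1 at rank 8 (r 0.96), SLC3A2 at rank 17 (0.96) and HYOU1 at rank 25 (0.95). Correlations this high over this many genes are a description of these libraries.

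The wider pathway was described with lists of genes chosen with earlier results of these data known. Of 14 brakes and partners of ATF4, ATF3 and PPP1R15A fell in the RD knockout with all libraries and no gene rose. ATF3, a repressor induced by ATF4, was 1072, 1070, 991, 1725 and 1326 normalized counts in RD controls against 421, 344, 359, 239 and 153 in RD knockouts. Its log2 difference was -2.08 ± 0.28 (adjusted p = 0.00906, limma). PPP1R15A (GADD34), which reverses eIF2 phosphorylation, was 871, 2080, 1762, 1683 and 2347 against 555, 420, 729, 391 and 365, a log2 difference of -1.80 ± 0.29 (adjusted p = 0.0255). With equal library sums both stood just outside the threshold (adjusted p = 0.0512), and in the deep libraries they passed under each scaling tried. Neither overlapped between the groups, although both are also early response genes outside the stress pathway. CEBPB, a dimer partner of ATF4, was called lower in RD without the shallow library (-1.33 ± 0.26, adjusted p = 0.0419) and stood at -1.995 ± 0.558 with it (0.285). With equal sums of the same deep libraries the CEBPB call was lost (-1.37, adjusted p = 0.0586).

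In the SJRH30 knockout (deep libraries) none of the same 14 passed, with ATF3 at -1.05 ± 0.28 (adjusted p = 0.103), CEBPB at -1.23 ± 0.34 (0.103) and PPP1R15A at -0.62 ± 0.30 (0.268). Apart from these, none of 15 genes of the eIF2 kinases and eIF2, 15 amino acid transporters, 20 aminoacyl-tRNA synthetases, 30 ATF6 and XBP1 endoplasmic reticulum genes or 16 p53 targets was called in either knockout, with all or with the deep libraries. Of 35 other ATF4 target genes CEBPB, which both lists hold, was the single call. Their median log2 differences in the SJRH30 knockout were -0.46 for the synthetases, -0.48 for the transporters, -0.19 for the other ATF4 targets and -0.13 for the endoplasmic reticulum genes, against 0.03 over all genes (deep libraries). With all libraries those medians were 0.11, 0.04, 0.07 and 0.07 against 0.17. CEBPG stood at -0.40 ± 0.28, DDIT4 at -0.76 ± 0.37, XBP1 at -0.08 ± 0.27 and TXNIP at -0.31 ± 0.31 in the SJRH30 knockout (deep libraries), and none passed. In RD the same 4 genes stood at 0.14 ± 0.27, -0.25 ± 0.32, -0.11 ± 0.28 and 0.26 ± 0.35, and none passed.

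Between the lines the pathway differed gene by gene. In controls (deep libraries) 9 of 15 amino acid transporters were higher in SJRH30 and none lower, led by SLC7A2 (2.92 ± 0.20, adjusted p = 5.55e-11) and SLC7A1 (2.78 ± 0.24, 1.87e-09), which import arginine and lysine. Of 20 aminoacyl-tRNA synthetases 11 were higher and none lower, led by MARS1 and WARS1 (1.99 ± 0.25, adjusted p = 9.63e-07), and of 15 genes of the eIF2 kinases and eIF2 8 were higher and none lower. Of 30 endoplasmic reticulum genes 16 were higher and 3 lower, with XBP1 at -0.10 ± 0.27 (adjusted p = 0.787). The other ATF4 targets were divided, with 12 of 35 higher, among them SHMT2 (3.10 ± 0.28, adjusted p = 4.69e-09), INHBE (3.94 ± 0.42, 8.72e-08), STC2 (2.99 ± 0.34, 1.77e-07) and PYCR1 (2.57 ± 0.35, 3.09e-06), and 8 lower, among them BEX2 (-5.95 ± 0.69, 3.02e-07) and GRB10 (-2.73 ± 0.26, 1.63e-08). Of the 14 brakes and partners 1, CEBPG (1.54 ± 0.27, adjusted p = 8.59e-05), was higher and NUPR1 (-1.53 ± 0.33, 0.000707) and JDP2 (-1.39 ± 0.35, 0.00296) were lower, and 6 of 16 p53 targets were higher and 1 lower. These counts stand beside 18.1% of all genes called higher and 22.4% called lower, and they rest on the scale of the libraries. With equal sums of the deep libraries 6 transporters were higher and 4 lower, 5 synthetases higher and 2 lower, 2 genes of the eIF2 list higher and 3 lower, 5 endoplasmic reticulum genes higher and 6 lower, and 8 other ATF4 targets higher and 12 lower, where 4362 genes were called higher and 16572 lower.

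With all libraries the same control comparison called 2 transporters, 4 synthetases, 3 genes of the eIF2 list, 2 endoplasmic reticulum genes and 4 other ATF4 targets higher, with 0, 0, 0, 1 and 7 lower. Over all genes 18.7% were called there, 6.23% as higher. In knockouts (deep libraries) 6 transporters, 9 synthetases, 5 genes of the eIF2 list, 9 endoplasmic reticulum genes and 9 other ATF4 targets were higher, with 1, 0, 0, 3 and 8 lower. Over all genes 12.6% were called higher and 14.2% lower in that knockout comparison. Of the genes of glucose and oxygen shortage, 9 of 16 were higher and 3 lower in SJRH30 controls (deep libraries), among them VEGFA, the angiogenic factor (2.04 ± 0.33, adjusted p = 3.12e-05), and CA9, a carbonic anhydrase induced by low oxygen (4.07 ± 0.41, 3.17e-08). Over all genes 18.1% were called higher and 22.4% lower in that control comparison. The summed normalized count of the 16 was 53235 to 78899 in SJRH30 controls, 27333 to 62870 in SJRH30 knockouts, 11989 to 31051 in RD controls and 13360 to 20098 in RD knockouts. No gene of this list was called in either knockout comparison, and the part of glucose or oxygen shortage in the differences between the lines was not tested.

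Marker genes of other cells were measured beside these results, and sums are given over the deep libraries unless another library is named. The tumors grew in mice, the human genome is the one named for processing, and no removal of mouse reads is mentioned. Host reads and reads of the grafted cells were not separated here, so the sums are no direct measure of other cells. The share of mouse reads in the marker genes, or in the stress response genes, was not tested. Of 18 macrophage markers, 4 were lower in the RD knockout (deep libraries) and none higher, C1QB at -1.93 ± 0.32 (adjusted p = 0.0205), C1QA at -1.35 ± 0.26 (0.0421), CD14 at -3.21 ± 0.43 (0.0046) and TYROBP at -1.65 ± 0.30 (0.0306), and with all libraries C1QB was the single call. Their summed count was 7027 to 15633 in RD controls and 4369 to 6952 in RD knockouts, without overlap, beside the fall of ATF3 and PPP1R15A. It was 8904 to 12601 in SJRH30 controls and 5169 to 16524 in SJRH30 knockouts. In the SJRH30 knockout 14 of the 18 markers were negative (deep libraries, median -0.61) and none was called. LAPTM5 went the other way, with means of 1365 in SJRH30 controls and 3074 in SJRH30 knockouts. In the difference of knockout effects 17 of the 18 were positive (deep libraries, median 0.49) and none was called, so the macrophage markers are not shown to differ in response between the lines. Of 12 endothelial markers PECAM1 alone was called in the SJRH30 knockout (1.80 ± 0.28, adjusted p = 0.0064, limma, deep libraries), and none with all libraries. The list was divided in the deep libraries, with 6 of 12 markers positive, 6 negative and a median of -0.10. Endothelial sums, which include PECAM1, were 1039 to 1836 in SJRH30 controls and 1314 to 3153 in SJRH30 knockouts. None of the fibroblast or rhabdomyosarcoma markers (12 listed of each) passed in either knockout, with fibroblast sums of 35198 to 110522 in SJRH30 controls against 14467 to 86803 in knockouts. Rhabdomyosarcoma sums, the check of tumor identity, were 32434 to 45895 in RD controls, 38317 to 57397 in RD knockouts and 78725 to 119094 in SJRH30 knockouts, with no marker at 0 in every library of a group. In SJRH30 controls 2 and 4, on which the CHAC1 call rests, they were 247091 and 179531, above every other library, against 87682 and 87601 in controls 1 and 5. The shallow libraries had 23820 in RD knockout 5 and 11307 in SJRH30 control 3, the latter below every RD library. CDK4, high in the other SJRH30 controls at 26756 to 52778, was 1144 in SJRH30 control 3, where RD libraries had 2524 or more. The part of these cells in the results was not tested.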

How the data were processed

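Poly(A) RNA-seq libraries of 20 xenograft tumors were grouped by their titles into 4 groups of 5. Per the submitters' processing notes, FastQC, fastp 0.20.1, STAR 2.7, GRCh38 p7, featureCounts and edgeR were used, without order or settings, and no removal of mouse reads is mentioned. The gene values, treated here as a score, were deposited as normalized counts in whole numbers, and the authors' scaling method is not given in the sources used here. The authors' comparison tables hold, per the file headers, a linear fold change (ratio), its log2 value and a p-value with its adjusted p-value, deposited for each of 4 comparisons. These statistics entered no test and are printed only where named.

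Tests used limma 3.58.1 (R 4.3.3, with Python 3.11.15, numpy 2.4.6 and pandas 2.3.3 for the rest) on log2(value + 1) with a trend of variance on mean, 2-sided, for genes that reached 1 in 5 or more of the libraries fitted. A gene was called at a Benjamini-Hochberg adjusted p below 0.05 over all genes tested. A fold change on this scale understates that of low genes. Knockout comparisons used the 10 libraries of a line, and comparisons of lines and the difference of knockout effects used all 20. Each fit was repeated without the 2 shallow libraries. What 1 read is worth was read from the spacing of low values and could be found in those 2 libraries alone, so the read depth of the other 18 is known only as a sum of normalized counts. Errors of log2 differences are standard errors of the fit. The labels do not say that tumors came from separate mice, so p-values measure the spread between these libraries.

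Co-variation used group-centred log2(value + 1) over the 18 deep libraries, permuted within groups 100000 times, or exhaustively within a line. Coordinates are GRCh38 from GENCODE 29 and promoter sequences are from RefSeq. The 10 genes and all gene lists were chosen with earlier results of these data known. Named beside the 10 genes are up to 4 called genes per list, direction and comparison with the smallest adjusted p, 10 further fixed genes (TLE3, PPP1R15A, ATF3, CEBPB, CEBPG, XBP1, DDIT4, VEGFA, TXNIP and CDK4) and the 5 genes most similar to the mean of the 10. Also named are AARS1, SLC3A2 and HYOU1, listed genes of lower rank in that similarity, and the macrophage marker LAPTM5. Alternatives were other pseudocounts, filters and scalings, library weights, a replicate block and libraries left out. Leaving out SJRH30 controls 2 and 4, leaving out each deep library in turn, and rescaling the deep libraries were chosen after seeing the data. The script was tested on simulated data.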

Additional observations from a re-analysis of the deposited data

Results flagged for a closer look

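Each group of 5 libraries was examined for a single library far from the others, for each of the 10 genes. Of 40 groups 2 had one, where chance alone gives about 1 in 20 groups. ATF5 stood at 508 normalized counts in RD knockout 3, against 242 to 296 in the other RD knockouts. CHAC1 stood at 236 in RD knockout 2, against 10 to 68 in the others. For ATF5 no other RD knockout reached the range of the RD controls, 460 to 828. For CHAC1 RD knockouts 1, 3 and 4, at 68, 44 and 35, also lay within the range of the RD controls, 21 to 301. At about the rate that chance gives, the 2 flags are not read as a result.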

How the results depend on the processing

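Leaving out the 2 shallow libraries left 34 results as they were in direction and call, turned the sign of 12, brought 7 past the threshold and moved 7 counts of calls by over 1.5 times, and the causes of the shifts below were not tested. Without them 142 genes were called in the RD knockout, 193 in the SJRH30 knockout with 1 of the 10 genes, 87 for the difference of knockout effects, 17900 between controls with 7 of the 10 and 11858 between knockouts. Signs then turned for HSPA5 (0.19), ASNS (0.068), TRIB3 (-0.036) and ATF4 (0.065) in the RD knockout, for TRIB3 (-0.24) and ATF4 (-0.30) in the SJRH30 knockout, for HSPA5 (-0.037; 0.14 when these libraries were rescaled to equal sums), PHGDH (-0.68), TRIB3 (-0.20), ATF4 (-0.36) and DDIT3 (-0.48) in the difference of effects and for ASNS (0.67) between controls. Library quality weights gave 447, 451 and 146 genes called for the RD knockout, the SJRH30 knockout (1 of the 10) and the difference of effects, 16620 between controls (6 of the 10) and 15722 between knockouts (7 of the 10). With weights the RD values of HSPA5 (0.15), ASNS (0.079), TRIB3 (-0.054), ATF4 (0.072) and CHAC1 (0.29), the differences of effects of HSPA5 (-0.12), PHGDH (-0.21), ATF4 (-0.045) and DDIT3 (-0.20) and ASNS between controls (0.46) turned sign. Without the shallow libraries and SJRH30 controls 2 and 4, chosen after seeing the data, 2 genes were called in the SJRH30 knockout, 15 for the difference of effects and 13200 between knockouts, and HSPA5 (-0.30; difference of effects -0.49), PHGDH (-0.058), DDIT3 (-0.038), CHAC1 between controls (-0.10) and ASNS between controls (0.52) turned sign.

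Other settings changed counts of few calls. The SJRH30 knockout called 2 genes with a pseudocount of 0.5, with one of 10 and with no filter on low values, 9 without a mean-variance trend and 89 with all 20 libraries in the fit. The RD knockout called 22 without a trend, 15 with all 20 libraries in the fit and 19 with equal library sums. The difference of effects called 8 with a pseudocount of 10 or without a trend. Equal sums called 2 of the 10 genes between knockouts, split all calls as 1560 higher and 9339 lower between controls (2758 and 5531 without rescaling) and 2119 and 4881 between knockouts (3546 and 3958), and turned ATF4 (-0.32) and ATF5 (-0.20) between controls. ASNS between controls, at -0.00, turned with a pseudocount of 10 (0.015) and with median-ratio scaling (0.11), as did the differences of effects of PHGDH (-0.0075) and TRIB3 (-0.16) under the latter.

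Same-numbered libraries of control and knockout deviated with correlations of -0.64 to -0.30 in RD and -0.42 to 0.25 in SJRH30. The labels name no pairs, and correlations between single libraries cannot settle whether equal numbers pair the samples. A replicate block called 9 genes in the RD knockout, 0 in the SJRH30 knockout, 0 for the difference of effects, 5445 between controls and 5228 between knockouts. HSPA5 between controls (adjusted p = 0.125) and PSAT1 between knockouts (adjusted p = 0.0521) then missed the threshold.

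Leaving out 1 library at a time gave 12 to 142 genes called in the RD knockout, 0 to 193 in the SJRH30 knockout (0 to 1 of the 10), 1 to 31 for the difference of effects, 6173 to 15533 between controls (2 to 7 of the 10) and 5628 to 12600 between knockouts. Log2 differences ranged from -0.42 to 0.068 (ASNS), -0.20 to 0.065 (ATF4), -0.27 to 0.19 (HSPA5) and -0.036 to 0.51 (TRIB3) in the RD knockout. In the SJRH30 knockout they ranged from -0.30 to 0.73 (ATF4), -0.59 to 0.35 (ATF5), -0.74 to 0.20 (DDIT3), -0.88 to 0.24 (PHGDH) and -0.24 to 0.64 (TRIB3). Between controls they ranged from -0.22 to 0.67 (ASNS), -0.21 to 0.83 (ATF4) and -0.14 to 0.81 (ATF5), and the differences of effects from -0.19 to 0.84 (ATF4), -0.29 to 0.64 (DDIT3), -0.54 to 0.58 (PHGDH) and -0.53 to 0.35 (TRIB3). Over all 20 libraries 10 pairs of genes were called in co-variation, and r turned to 0.35 (ATF4 and HSPA5), 0.18 (ATF5 and HSPA5), 0.057 (DDIT3 and PSAT1), 0.30 (DDIT3 and HSPA5), 0.38 (CHAC1 and ASNS), 0.048 (CHAC1 and HSPA5) and 0.42 (ASNS and TRIB3). A value of 10 normalized counts rests on about 1 read in SJRH30 control 3, which limits CHAC1 there.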
